A study of Mus musculus with 8 samples.

Results

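The nuclear genes for the subunits of the mitochondrial respiratory chain and the ATP synthase were examined in mouse MLL-AF9 acute myeloid leukaemia cells taken from chemotherapy-treated mice on a standard diet or on a diet without leucine, isoleucine and valine, the branched-chain amino acids (BCAA). Members were the rows of the count table whose Entrez identifiers carry a protein-coding symbol beginning Nduf (without the Ndufaf assembly factors), Sdha to Sdhd, Uqcr, Cyc1, Cox4 to Cox8 followed by a letter, or Atp5, which gave 88 of 27179 genes. Complex I had 40 of them, complex II 4, complex III 9, complex IV 18 and complex V, the ATP synthase, 17. Ndufb1 was not analysed here.

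The leukaemia came from a single terminally ill mouse, was expanded in culture, and carried green fluorescent protein (GFP), which the labels place under ubiquitin control, and luciferase under the beta-actin promoter. The cells were given by vein, without conditioning, to male mice of 8 to 10 weeks, and the labels give the genotype as WT. Every library of both groups came from a mouse that had received 5+3 chemotherapy, meaning 5 daily doses of cytarabine (100 mg/kg) and, on the first 3 of these days, doxorubicin (3 mg/kg), and the leukaemia cells were sorted from marrow as living GFP-positive cells at the time of greatest response. The AA group (standard amino acids) had 5 libraries and the group whose samples are named BCAA, taken to be the BCAA-free diet because the design text names it, had 3. The labels call them biological replicates, without strain or batch.

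Complex I (NADH dehydrogenase) and complex II (succinate dehydrogenase) pass electrons to ubiquinone, complex III passes them on to cytochrome c, and complex IV (cytochrome c oxidase) passes them to oxygen. Complexes I, III and IV pump protons across the inner mitochondrial membrane, and complex V uses their return to make ATP. The breakdown of BCAA feeds this chain with reduced cofactors and with acetyl-CoA and succinyl-CoA, and leukaemic progenitors are known to depend strongly on mitochondrial respiration. The remaining core subunits are encoded in mitochondrial DNA. Their 13 rows held a count of 0 in every library, which cannot be read as absent expression, and they were not analysed here.

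Library totals ran from 14851240 to 38966911 counts, and the member genes took between 0.601% and 0.901% of them. A pair of libraries stood apart in these genes, AA replicate 2 on the low side and BCAA replicate 3 on the high side, and values without them are given beside several results. The 10 markers of the myeloid leukaemia (Hoxa9, Meis1, Kit, Myb, Mpo and others) were all measured and none was called, with a summed level of 10320 to 12780 CPM (each library's counts scaled to a common total with edgeR's TMM factors) in the AA group and 8422 to 9374 CPM in the BCAA group. Most of this sum was Mpo, at 7623 to 10000 CPM in AA and 5814 to 6967 CPM in BCAA libraries, while the groups overlapped in Hoxa9 (161.5 to 199.8 and 140.0 to 189.3 CPM) and Meis1 (120.3 to 146.0 and 113.2 to 128.2 CPM). The 5 B cell markers summed to 8.14 to 15.3 CPM in AA and 25.4 to 98.97 CPM in BCAA libraries, the 7 T cell markers to 3.86 to 10.4 and 6.11 to 37.98 CPM, the 6 erythroid markers measured to 3.77 to 12.8 and 3.79 to 38.7 CPM, the 7 macrophage markers to 296 to 401 and 222 to 305.5 CPM, the 7 neutrophil markers to 721 to 5918 and 1416 to 5797 CPM, the 6 endothelial and stromal markers to 25.7 to 43.2 and 41.4 to 62.4 CPM, and the 4 megakaryocyte markers to 0.960 to 2.96 and 2.64 to 5.31 CPM. In edgeR 3 B cell markers, 1 macrophage marker and 1 endothelial or stromal marker were called between the diets. The macrophage sum was mostly Vcam1 (206.5 to 238.5 CPM in AA and 105.0 to 201.1 CPM in BCAA libraries) and Adgre1 (71.6 to 166.8 and 55.3 to 91.9 CPM). Vcam1 was lower in every BCAA library, and Adgre1 overlapped between the groups. In the other direction, C1qa (2.04 to 3.72 CPM in AA and 4.01 to 6.44 CPM in BCAA libraries) and C1qc (2.04 to 2.67 and 3.59 to 5.70 CPM) were higher in every BCAA library. C1qb, Mrc1 and Cd163 were mostly higher in BCAA libraries, with overlap. The stromal gene Cxcl12 was at 2.04 to 8.16 CPM in AA and 13.5 to 39.4 CPM in BCAA libraries. Pecam1, of the same list, overlapped between the groups (19.8 to 39.2 and 18.5 to 28.1 CPM). None of these markers was at 0 in all libraries. The neutrophil sum was lowest in AA replicate 2 (721 CPM) and the erythroid sum highest in BCAA replicate 3 (38.7 CPM), and the part of these cell types in the results was not tested. Ndufv1 and Ndufb8, which mark the group of genes, were measured in every library. In bulk RNA of this kind, fewer cells of a type and less RNA per cell cannot be told apart.

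Of the 88 members, 82 passed the filter on low counts. Their levels are first compared between genes as CPM per kilobase of exon, and all later CPM values are not divided by length. On the per-kilobase scale in the AA group, the catalytic beta subunit of the ATP synthase, Atp5b, had the highest level, 556 ± 65.3 (SD, n = 5), followed by the alpha subunit Atp5a1 with 324.5 ± 33.01 and by Cox4i1, the ubiquitous subunit 4 of cytochrome c oxidase, with 315 ± 28.5. The last pair did not differ beyond their spread. Atp5b and Atp5a1 alone held 26.8% to 28.4% of the members' counts in a library. The median level per kilobase was 42.7 in complex I, 38.2 in complex II, 91.2 in complex III, 79.7 in complex IV and 114 in complex V. Within complex I the range ran from 0.418 for Ndufa4l2, the hypoxia-inducible relative of Ndufa4, to 182 for Ndufa4 itself, a subunit that despite its name belongs to cytochrome c oxidase. Members were grouped by symbol, so Ndufa4 and Ndufa4l2 stay in all values given for complex I. In complex II the flavoprotein Sdha was at 112 ± 7.77 and the membrane anchor Sdhd at 4.95 ± 1.52.

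**Figure D1:**
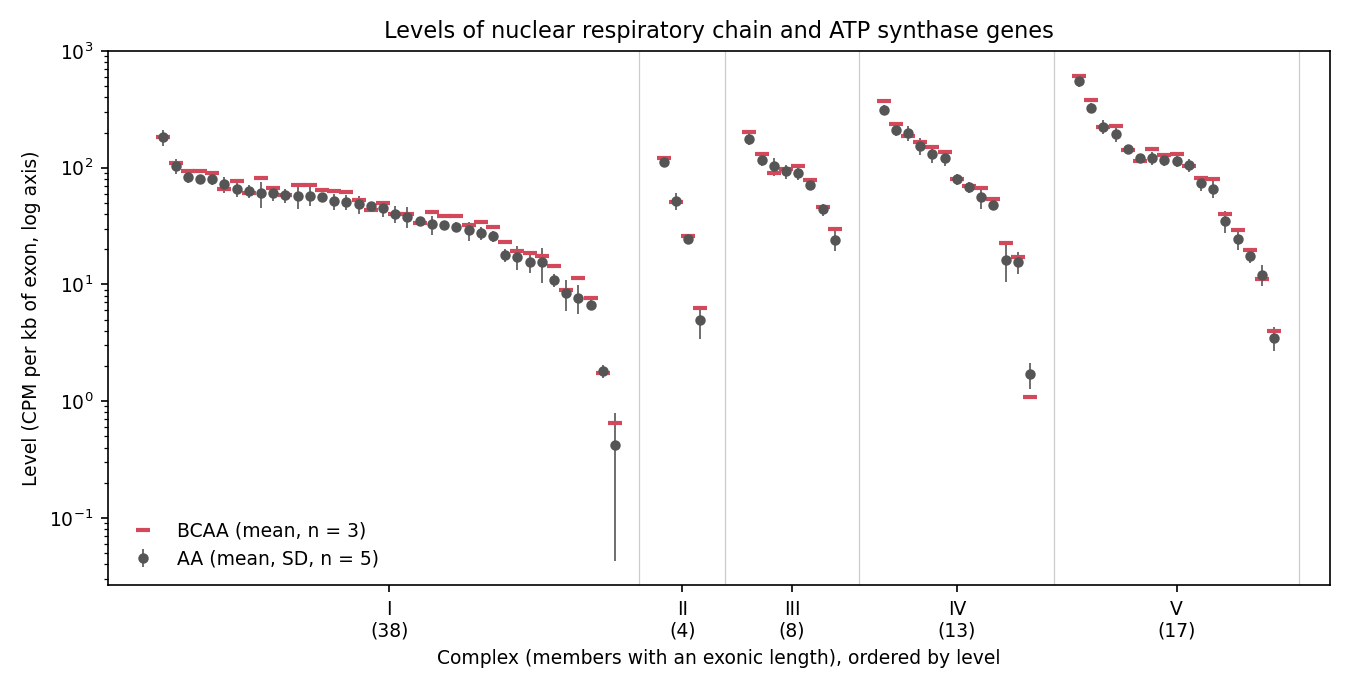
Level of each tested member with a known exonic length, in CPM per kilobase of exon on a log axis, grouped by complex and ordered by level; grey points are AA means with SD (n = 5) and red dashes BCAA means (n = 3). Atp5b leads at 556 in the AA group, and the highest and lowest members differ 7.4-fold in complex III and between 22.7-fold and 436-fold in the other complexes.

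The forms of complex IV subunits used in heart, muscle or testis were nearly absent. Cox7b2 and Cox8c, known from testis, had a count of 0 in all 8 libraries, and the complex III subunit Uqcr11 was also listed at 0 throughout. A count of 0 allows up to 3 counts, which is 0.077 to 0.202 CPM depending on the library, for counting error only. As with the mitochondrial rows, the 0 of Uqcr11 cannot be read as absent expression, and its cause was not tested. The other 8 members of complex III passed the low-count filter. Cox4i2, the hypoxia and lung form of subunit 4, had 0 to 14 counts in AA libraries and 0 to 2 in BCAA libraries. Cox6a2, a heart and muscle form, had 0 to 9 and 2 to 8 counts, and Cox8b, also of heart and muscle, 0 to 1 and 0 to 11. These 6 genes did not pass the filter and were not tested. Cox7a1, the muscle form of subunit 7a, passed it with 0.908 ± 0.224 CPM in AA and 0.580 ± 0.301 CPM in BCAA libraries and made 0.594% to 3.1% of the counts that it shared with Cox7a2. By contrast Cox6b2, best known as a testis form, was measured well in this leukaemia, at 4.61% to 13.1% of the counts of the pair Cox6b1 and Cox6b2.

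The diet comparison asked how leukaemia cells that had met chemotherapy in mice without dietary BCAA differed from those on the standard diet. By edgeR's quasi-likelihood test, none of the 82 tested members had an adjusted p under 0.05, while 0.756% of all 13364 tested genes had (0.217% higher and 0.539% lower). DESeq2 and limma-voom called none either, against 2.85% and 0.479% of all genes they tested. The smallest adjusted p of a member in edgeR was 0.287, that of Ndufv1. At an unadjusted p under 0.05 there were 11 members in edgeR, 12 in DESeq2 and 14 in limma-voom. Of all genes they tested, 10.7% had such a p in DESeq2 and 13.1% in limma-voom. The 11 are 13.4% of the tested members, where 13.5% of all tested genes had such a p in either direction, but all 11 were higher on the BCAA-free diet, where 6.21% of all genes were. The fold changes were small and leaned upward. The median log2 fold change of BCAA against AA was 0.17, a 1.12-fold difference, beside 0.02 over all tested genes, and 66 of 82 members (80.5%) had a positive value, against 52.6% of all genes. The members are mostly short, and of the other genes under 1500 exonic bases 64.9% to 65.7% were positive in the length bins described below. In 11 members all 3 BCAA libraries lay above all 5 AA libraries, where 4.17% of all genes were separated in that direction, and no member was separated in the other, where 4.68% of all genes were. The members come from the same libraries and are not replicates.

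**Figure D2:**
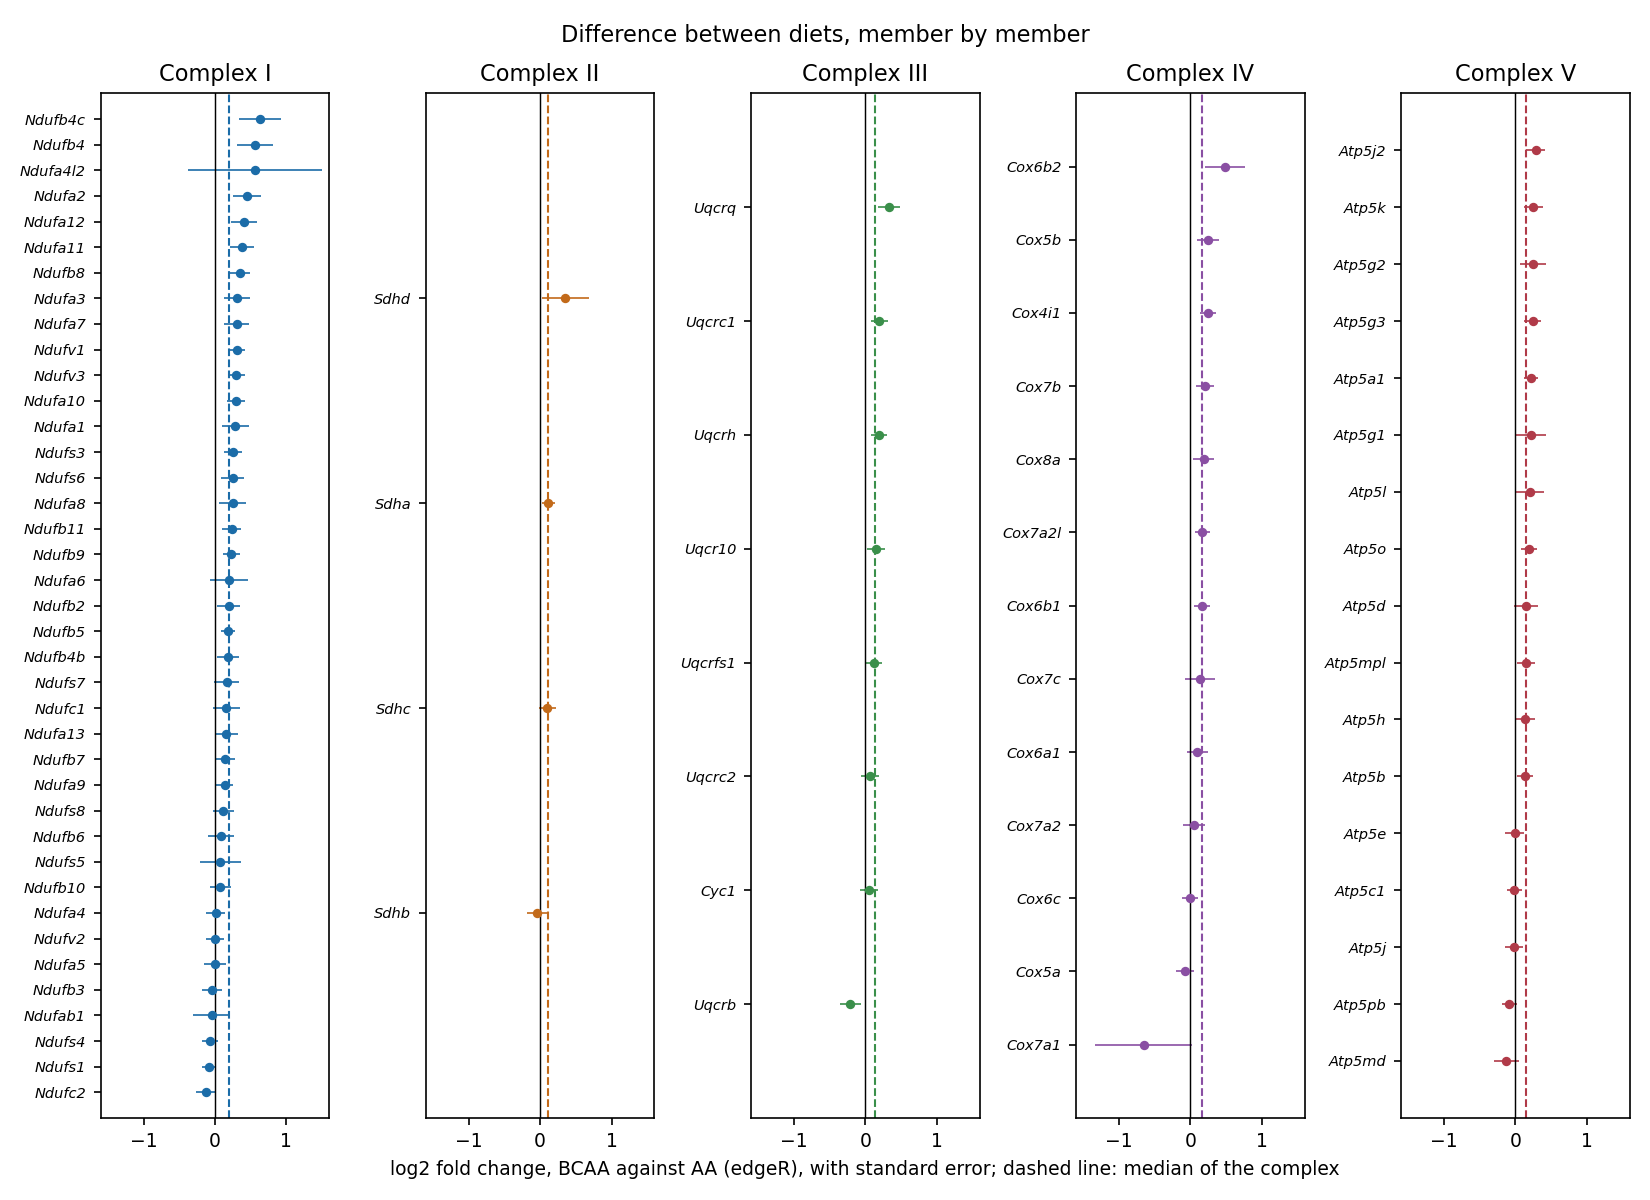
log2 fold change of BCAA against AA for the tested members (1 is not shown), by complex, with its standard error from edgeR (5 AA and 3 BCAA libraries); dashed lines are the medians of the complexes, between 0.11 and 0.19. No member passed the adjusted threshold, and Cox7a1 and Ndufa4l2, both of low count, have the widest errors.

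Complex I had 34 of 40 members with a positive value and a median of 0.19. The median was 0.11 without BCAA replicate 3 and 0.25 without BCAA replicate 1. Complex I held 9 of the 11 members with an unadjusted p under 0.05 in edgeR, Ndufb4 and Ndufb4c among them. The 9 are 22.5% of complex I and all were higher, where 6.21% of all tested genes were. Without BCAA replicate 3 no member had such a p, while 11.6% of all tested genes had, in either direction. Among the 7 core subunits of complex I, conserved from bacteria, the median was 0.16, and among the 33 accessory subunits 0.19. Ndufv1 (chromosome 19, 4007499 to 4012755, GRCm38), the flavin subunit that takes electrons from NADH, was at 60.4, 48.7, 49.5, 59.9 and 58.0 CPM in the 5 AA libraries and at 70.2, 61.7 and 73.0 CPM in the BCAA libraries. The groups did not overlap, though the lowest BCAA value lay close to the highest AA value. Its mean was 68.3 ± 5.88 CPM (SD, n = 3) against 55.3 ± 5.75 CPM (SD, n = 5), a log2 fold change of 0.30 (SE 0.12, 95% interval 0.05 to 0.56, adjusted p = 0.287). Ndufb8 (chromosome 19, 44548571 to 44555442, GRCm38), an accessory subunit of the membrane arm whose protein is widely used as a marker of assembled complex I, was at 84.8, 53.1, 81.6, 88.5 and 72.8 CPM in AA and 93.4, 96.1 and 100.8 CPM in BCAA libraries. AA replicate 2 was far below the rest and the groups did not overlap. The log2 fold change was 0.34 (SE 0.14, adjusted p = 0.297), and 0.24 without AA replicate 2.

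Other members grouped under complex I lay on both sides of these values. Ndufs1, the largest core subunit and carrier of several iron-sulfur clusters, was at 131 ± 8.44 CPM in AA and 123 ± 3.43 CPM in BCAA libraries (a log2 difference of -0.09 with SE 0.10, adjusted p = 0.746). Ndufa4, grouped here by its symbol alone, was at 114 ± 18.1 and 115 ± 10.05 CPM (a log2 difference of 0.01 with SE 0.13). The lowest value in the complex was that of Ndufc2, a small membrane-arm subunit, with 54.2 ± 8.65 and 49.7 ± 6.02 CPM (a log2 difference of -0.12 with SE 0.14). The highest values were those of Ndufb4 (0.56, SE 0.25) and of Ndufb4c (0.63, SE 0.29). By name they are related copies whose reads the counting may have split, but their sequences were not compared here. Ndufb4 was at 8.89, 4.09, 8.81, 6.90 and 8.71 CPM in AA and 9.99, 11.97 and 11.1 CPM in BCAA libraries, so it was low in AA replicate 2 and its groups did not overlap. Ndufb4 and Ndufb4c had adjusted p of 0.349 and 0.359, and the gene named as a further copy, Ndufb4b, had a log2 fold change of 0.18 (adjusted p = 0.652). The spans of Ndufb4c and Ndufb4b lie wholly within those of the genes Mroh5 and Dock8.

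**Figure D3:**
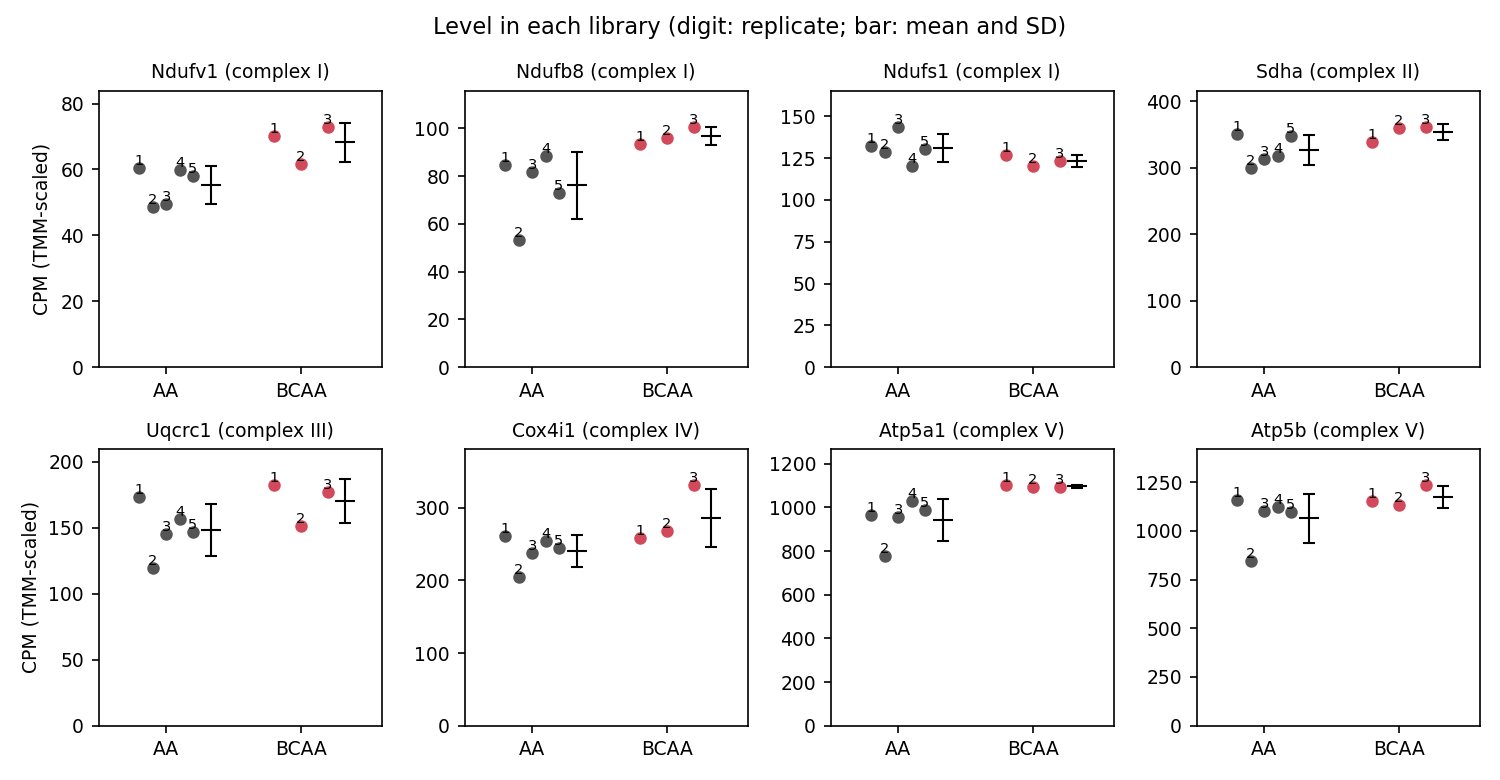
CPM of 8 members in each library; digits are replicate numbers and black bars the group mean and SD (n = 5 and 3). AA replicate 2 is the lowest library for 7 of the 8, and Ndufs1 shows no such dip.

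In complex II, the sole complex built from nuclear subunits alone, 3 of 4 members had a positive value and the median was 0.11. The median became -0.03 without BCAA replicate 3 and 0.16 without BCAA replicate 1. Sdha, which oxidises succinate, was at 351, 299.6, 313, 318 and 348 CPM in AA and 339, 359 and 362 CPM in BCAA libraries. The groups overlapped, and the log2 fold change was 0.12 (SE 0.10, adjusted p = 0.635). The iron-sulfur subunit Sdhb was at 59.6 ± 9.64 and 58.0 ± 8.48 CPM (a log2 difference of -0.04 with SE 0.14). The membrane anchors Sdhc and Sdhd had log2 fold changes of 0.10 (SE 0.12) and 0.36 (SE 0.33), and Sdhd, at 6.09 ± 1.87 and 7.77 ± 3.66 CPM, had a log2 fold change of 0.01 without BCAA replicate 3 and 0.67 without BCAA replicate 1. Without BCAA replicate 3 that of Sdhc was -0.07.

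Complex III had 7 of 8 tested members with a positive value and a median of 0.14. The median became 0.07 without AA replicate 2 and 0.18 without BCAA replicate 2. The redox subunits were nearly level between the diets. Cyc1, cytochrome c1, was at 66.7 ± 7.74 CPM in AA and 69.3 ± 9.32 CPM in BCAA libraries (a log2 difference of 0.06 with SE 0.13), and Uqcrfs1, the Rieske iron-sulfur protein, at 97.8 ± 10.1 and 106 ± 11.5 CPM (0.12, SE 0.11). Uqcrc1, a large scaffold subunit, was at 148 ± 19.6 and 170 ± 16.6 CPM (0.20, SE 0.12, adjusted p = 0.49). Without AA replicate 2 the values of Uqcrfs1 and Uqcrc1 were 0.06 and 0.13, and that of Uqcrfs1 was 0.04 without BCAA replicate 1. Without BCAA replicate 3 that of Cyc1 was -0.07. The small subunits went both ways. Uqcrq was at 47.6, 29.7, 46.2, 51.8 and 42.1 CPM in AA and 57.5, 48.6 and 58.2 CPM in BCAA libraries (0.33, SE 0.16, adjusted p = 0.37), with an overlap between AA replicate 4 and BCAA replicate 2. Uqcrb was at 55.1, 38.9, 62.6, 58.5 and 61.9 CPM in AA and 52.7, 47.8 and 43.7 CPM in BCAA libraries (-0.21, SE 0.15, adjusted p = 0.58). All 3 BCAA values of Uqcrb lay below the AA values except that of AA replicate 2, and without that library the log2 fold change was -0.31, still without a call (adjusted p = 0.297).

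Complex IV had 10 of 13 tested members with a positive value and a median of 0.17. The median became 0.03 without BCAA replicate 3, 0.09 without AA replicate 2 and 0.21 without BCAA replicate 2. It was 0.08 with the GC and length trends described below removed. Cox4i1 was at 261.5, 205, 238, 255 and 244 CPM in AA and 258, 267.5 and 331 CPM in BCAA libraries. BCAA replicate 3 was well above all others while BCAA replicate 1 lay inside the AA range. Its log2 fold change was 0.25 (SE 0.11, adjusted p = 0.348), and 0.12 without BCAA replicate 3. Cox5a, a subunit next to the catalytic core, was at 128 ± 19.2 and 122 ± 7.28 CPM (-0.08, SE 0.12), whereas its partner Cox5b was at 51.6 ± 11.1 and 61.3 ± 6.45 CPM (0.25, SE 0.16). Of the other subunits with tissue forms, the common form had a log2 fold change of 0.09 (SE 0.15) for Cox6a1, 0.17 (SE 0.12) for Cox6b1, 0.05 (SE 0.16) for Cox7a2, 0.20 (SE 0.13) for Cox7b and 0.18 (SE 0.14) for Cox8a. Without BCAA replicate 3 the values were -0.07 for Cox6a1, -0.17 for Cox7a2 and 0.03 for Cox8a, and without AA replicate 2 those of Cox5a and Cox5b were -0.16 and 0.14. Cox6b2 was at 15.6, 15.1, 6.39, 14.8 and 8.35 CPM in AA and 12.5, 21.02 and 17.2 CPM in BCAA libraries (0.49, SE 0.28, adjusted p = 0.465), a spread in which AA replicates 3 and 5 were low, and without BCAA replicate 2 the value was 0.30. Cox7a2l, which joins complexes III and IV into supercomplexes, was at 54.6 ± 3.90 and 61.4 ± 2.62 CPM (0.17, SE 0.11, adjusted p = 0.532). Cox7a1 had the most negative value of all members (-0.65, SE 0.68), which at its low count covers a 95% interval from -2.09 to 0.78 and was -0.38 without BCAA replicate 3.

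In complex V, 12 of 17 members had a positive value and the median was 0.15. The median became 0.06 without BCAA replicate 3, 0.08 without AA replicate 2 and 0.21 without BCAA replicate 2. Atp5a1 was at 963, 779, 955, 1030 and 986 CPM in AA and 1102, 1093 and 1093 CPM in BCAA libraries. The BCAA values were nearly identical and all above the AA range, and the log2 fold change was 0.22 (SE 0.10, adjusted p = 0.379). Its partner in the catalytic head, Atp5b, was at 1158, 845.5, 1100, 1124 and 1099 CPM in AA and 1153, 1131 and 1235 CPM in BCAA libraries (0.14, SE 0.11, adjusted p = 0.622), with overlap. Without AA replicate 2 these values became 0.16 and 0.07. The proton-carrying c ring is encoded by 3 genes, of which Atp5g3 had by far the highest level per kilobase, 194 ± 29.9 in AA. Atp5g2 had 24.6 ± 5.06 and Atp5g1 3.47 ± 0.805. The exonic length used for Atp5g1, 4912 bases, exceeds its RefSeq span (96072793 to 96075694), so its value per kilobase is not reliable. Not divided by length, Atp5g1 and Atp5g2 were nearly level in AA, at 17.04 ± 3.955 and 18.0 ± 3.70 CPM. All 3 had a small positive log2 fold change, 0.24 (SE 0.12) for Atp5g3, 0.25 (SE 0.18) for Atp5g2 and 0.21 (SE 0.21) for Atp5g1. Without BCAA replicate 3 that of Atp5g1 was 0.04, and without AA replicate 2 those of Atp5g3 and Atp5g1 were 0.15 and 0.08. The peripheral stalk, which holds the head still, had a median of 0.06, with Atp5pb at 195 ± 14.8 and 184 ± 14.9 CPM (-0.09, SE 0.10). Of the small membrane subunits, Atp5j2 had the highest value in the complex (0.28, SE 0.13, adjusted p = 0.37), Atp5k followed (0.25, SE 0.14), and Atp5md, needed for dimers of the enzyme, had the lowest (-0.13, SE 0.17). Without BCAA replicate 3 Atp5pb was at -0.02, Atp5k at 0.16 and Atp5md at -0.21.

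The members moved together from library to library. Relative to the AA mean, the median member was at -0.31 in AA replicate 2 and between 0.03 and 0.13 in the other 4 AA libraries, on a log2 scale. In the BCAA libraries it was at 0.09, 0.09 and 0.34, so the first 2 lay inside the AA range and replicate 3 alone stood above it. All 5 complexes had their lowest median in AA replicate 2 and their highest in BCAA replicate 3. AA replicate 2 was the lowest of the 8 libraries for 67 of 82 members (81.7%, against 19% of all tested genes), and BCAA replicate 3 the highest for 46 (56.1%, against 17.9%). The median over all tested genes stayed between -0.01 and 0.05 in every library. Without AA replicate 2 the members' median log2 fold change was 0.09, with 59 of 82 positive and 5 members at an unadjusted p under 0.05. Without BCAA replicate 3 it was 0.08, with 58 positive and no member at an unadjusted p under 0.05. With both left out, an alternative added after seeing the data, it was 0.01, with 43 positive and no member at an unadjusted p under 0.05.

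**Figure D4:**
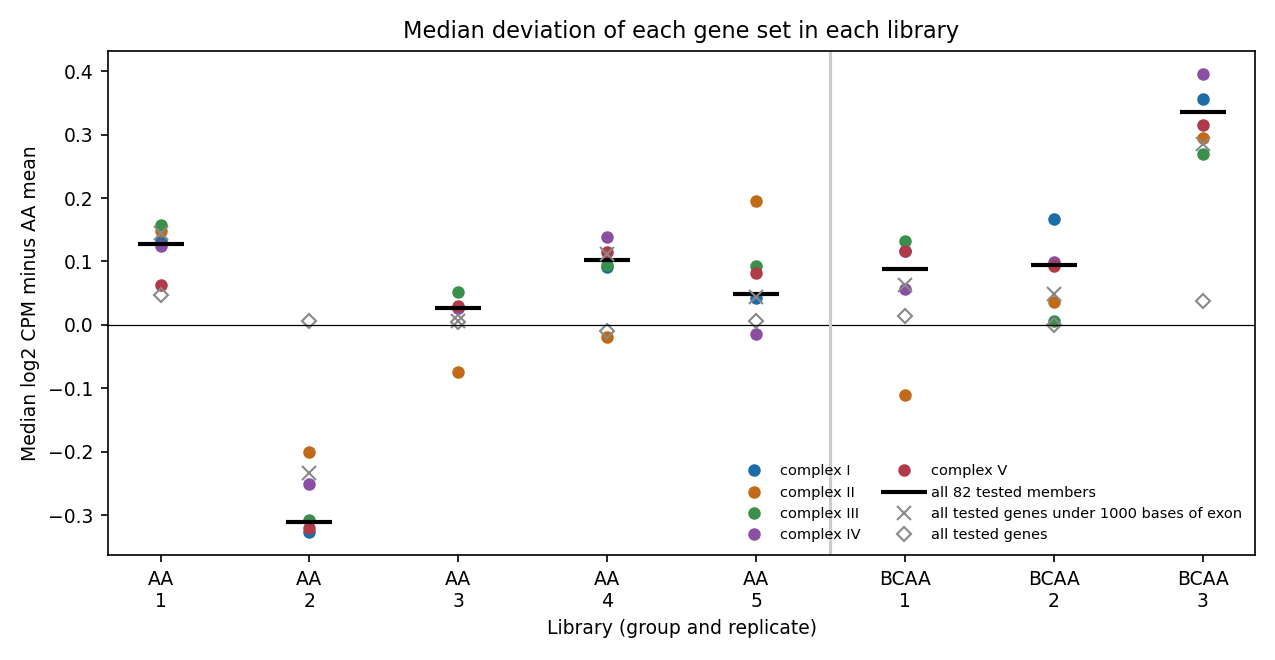
Median deviation of log2 CPM from the AA mean in each library, for the members of each complex, all 82 tested members, all tested genes with under 1000 bases of exon, and all tested genes. AA replicate 2 (-0.31 for the members) and BCAA replicate 3 (0.34) lie apart from the other 6 libraries, and the short genes follow the members.

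The members are short transcripts, with a median of 992 exonic bases against 3239 over all tested genes, and short transcripts as a whole moved with these libraries. The 576 tested genes with under 1000 bases, members included, had a median of -0.23 in AA replicate 2 and 0.29 in BCAA replicate 3, while the 4436 genes of 4000 bases or more were at 0.09 and -0.07. Across length bins, the other tested genes had a median log2 fold change of 0.14 under 600 bases, 0.09 from 600 to 1000, 0.09 from 1000 to 1500, 0.04 from 1500 to 2500, 0.01 from 2500 to 4000 and -0.03 above. The members' medians in the same bins were 0.20, 0.17, 0.16, 0.14, 0.10 and 0.19, each above that of the other genes, but only the bin from 600 to 1000 bases held over 20 members and the last 2 held 5 and 3. The last bin was made of Atp5g1, Ndufab1 and Ndufb2. The 4912 bases used for Atp5g1 exceed its gene span, so that bin is not a sound match by length. Smooth trends of GC content and exonic length were also removed from each library, an alternative not planned beforehand. With the trends removed, 61 of 80 members had a positive value, the median was 0.11 and none was called in edgeR (smallest adjusted p 0.149). The part of transcript length in the difference was not tested further.

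**Figure D5:**
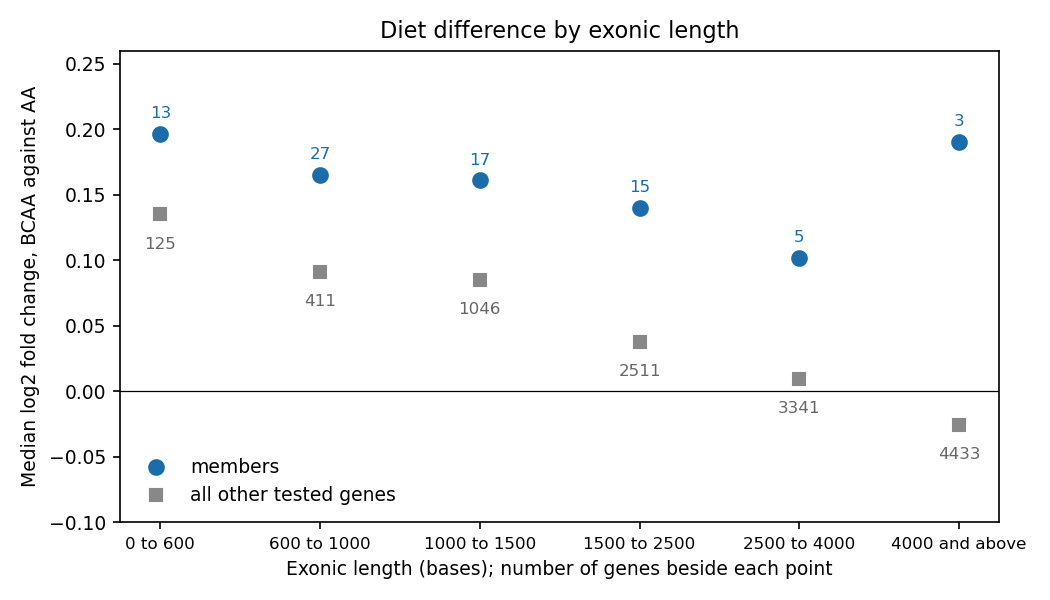
Median log2 fold change of BCAA against AA in bins of exonic length, for the members and for all other tested genes; numbers are genes in the bin. The other genes go from 0.14 in the shortest bin to -0.03 in the longest, and the members lie between 0.10 and 0.20.

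Genes that build, feed or control the chain did not share a common difference. Of 47 assembly factors 45 were tested, 24 of them positive with a median of 0.00, and none was called in edgeR. An unadjusted p under 0.05 was found for 4 (8.89%, beside 13.5% of all tested genes), and only 2 of these were higher. Sdhaf1, which inserts iron-sulfur clusters into Sdhb, had the smallest p, with 9.98 ± 1.20 CPM in AA and 15.8 ± 2.73 CPM in BCAA libraries (a log2 difference of 0.66 with SE 0.19, adjusted p = 0.133). Lyrm7, of low level, had the largest difference and was lower in every BCAA library, at 3.79 ± 0.930 and 1.79 ± 0.356 CPM (-1.07, SE 0.38, adjusted p = 0.234). The 13 genes of electron and nucleotide carriers had a median of -0.02 with 5 positive, and here Slc25a4, the muscle form of the ADP/ATP carrier, had the smallest p, at 42.4 ± 5.97 and 53.4 ± 0.783 CPM (0.33, SE 0.13, adjusted p = 0.287). Cytochrome c itself, Cycs, went the other way, at 70.04 ± 19.8 and 50.7 ± 10.2 CPM (-0.47, SE 0.21, adjusted p = 0.347). The 18 genes of pyruvate dehydrogenase and the TCA cycle had a median of 0.05 with 11 positive, led by Suclg2, a succinyl-CoA ligase subunit (0.27, SE 0.15, adjusted p = 0.445). Suclg2 was high in BCAA replicate 1 alone (51.6 CPM). BCAA replicates 2 and 3, at 36.1 and 37.4 CPM, lay inside the AA range of 31.3 to 39.8 CPM. The 13 genes of coenzyme Q synthesis had a median of 0.18 with 10 positive, led by the kinase-like Coq8a (0.59, SE 0.28, adjusted p = 0.36). Of 18 regulators of respiratory gene and mitochondrial DNA expression 16 were tested, 5 of them positive with a median of -0.04, led by Polrmt, the mitochondrial RNA polymerase (0.41, SE 0.17, adjusted p = 0.319). No gene of these lists was called.

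By name, several members have copies elsewhere that are annotated as pseudogenes. The sequences were not compared here, and the counts of these members may have been split. Ndufs5-ps, on chromosome 16 from 42955580 to 42956079 (GRCm38), had 30.2 CPM in AA and 26.6 CPM in BCAA libraries on average, more than the gene Ndufs5 itself, which had 7.26 ± 2.16 and 7.64 ± 1.72 CPM. The copies Atp5c1-ps and Ndufs6b had 11.6 and 12.1 CPM in the AA group, and Uqcrh-ps1 and Ndufa11b 3.07 and 1.13 CPM. None of the copies was called, with log2 fold changes between -0.18 and 0.24. The spans of 29 members also overlap another annotated gene, among them Atp5j, which overlaps Gabpa, the gene of an ETS factor that controls respiratory genes, over 967 bases.

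Respiratory genes are known to be controlled through promoter sites for NRF1, for ETS factors and for YY1, so RefSeq promoters (GRCm38.p6, 250 bases before to 50 after the start site) were searched on both strands. A promoter was found for 70 of the 88 members. The palindromic NRF1 motif, with any base at its variable position, was in 17 (24.3%), beside 11.8% of all tested genes. The ETS motif CCGGAAG was in 17 (24.3%, beside 20.8%), the YY1 motif AANATGGC in 17 (24.3%, beside 10.4%), the SP1 motif GGGGCGGGG in 11 (15.7%, beside 24.1%) and CCAAT in 30 (42.9%, beside 43.7%). Tested members with the NRF1 motif had a median log2 fold change of 0.20 (17 genes), and those without 0.16 (50 genes). For the ETS motif these were 0.14 and 0.18, and for YY1 0.16 and 0.17, with no test of these differences. The 150 bases before the start site are shown for 4 members with matches there and for the 2 complex I genes described first, which have none, 5′ to 3′ in the direction of transcription, with NRF1, ETS and YY1 matches in capitals.
Sdha (chr13:74350241-74350390, minus strand): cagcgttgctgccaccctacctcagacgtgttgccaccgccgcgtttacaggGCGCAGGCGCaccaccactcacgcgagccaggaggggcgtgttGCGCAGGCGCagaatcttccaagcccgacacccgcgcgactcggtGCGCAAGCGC
Ndufb4 (chr16:37654369-37654518, minus strand): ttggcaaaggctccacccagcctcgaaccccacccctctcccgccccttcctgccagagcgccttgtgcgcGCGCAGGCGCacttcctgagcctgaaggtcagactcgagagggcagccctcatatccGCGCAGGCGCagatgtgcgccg
Atp5g2 (chr15:102671048-102671197, minus strand): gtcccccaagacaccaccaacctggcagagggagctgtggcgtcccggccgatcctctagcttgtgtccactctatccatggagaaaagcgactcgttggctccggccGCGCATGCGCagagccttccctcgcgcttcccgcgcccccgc
Cox6a1 (chr5:115348959-115349108, minus strand): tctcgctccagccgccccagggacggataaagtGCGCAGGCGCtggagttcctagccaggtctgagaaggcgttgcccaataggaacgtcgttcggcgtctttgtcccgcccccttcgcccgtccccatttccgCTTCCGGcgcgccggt
Ndufv1 (chr19:4012756-4012905, minus strand): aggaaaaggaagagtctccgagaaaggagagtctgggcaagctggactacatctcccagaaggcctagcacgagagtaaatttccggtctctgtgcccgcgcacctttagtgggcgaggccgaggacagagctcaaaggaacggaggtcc
Ndufb8 (chr19:44555443-44555592, minus strand): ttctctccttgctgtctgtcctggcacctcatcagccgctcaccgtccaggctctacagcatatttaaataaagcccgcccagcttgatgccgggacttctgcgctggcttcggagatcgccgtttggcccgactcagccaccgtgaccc
Sdha holds 3 NRF1 matches and Ndufb4 2, Atp5g2 has 1, and Cox6a1 has an NRF1 and an ETS match. Their log2 fold changes were 0.12 for Sdha, 0.56 for Ndufb4, 0.25 for Atp5g2 and 0.09 for Cox6a1, next to 0.30 for Ndufv1 and 0.34 for Ndufb8. A match is a description of the letters, not a site, and no match says only that these letters are not in the window.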

How the data were processed

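Polyadenylated RNA was sequenced as pairs of 38 bp reads from Kapa mRNA HyperPrep libraries, per the labels' protocols. The authors deposited raw read counts per Entrez gene for 8 libraries (5 AA, 3 BCAA). Per the submitters' processing notes the build was mm10 and the tools were featureCounts and Cell Ranger. The sources used here do not give the aligner, the strand setting or how multi-mapping reads were treated. Symbols and coordinates came from RefSeq (GRCm38.p6), which matched 25275 of 27179 identifiers, and exonic lengths from coding transcripts of GENCODE M21 basic (GRCm38), which gave 86 of 88 members a length.

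Counts were tested with edgeR 4.0.16 (R 4.3.3), a robust quasi-likelihood F test with TMM factors, edgeR's filter (minimum count 10, total 15), a model with diet alone, and p-values adjusted over 13364 genes by Benjamini-Hochberg at 0.05. Standard errors were derived from the log2 fold change and the square root of its F statistic, 95% intervals use the fit's degrees of freedom, and CPM use TMM-scaled sizes. The common biological coefficient of variation was 23.0%. Libraries of the same group were all distinct, with chi-square values of 20.3 to 65.97 per degree of freedom in their pairwise comparison. DESeq2 1.42.0, limma 3.58.1 (voom), other scalings, no filter, left-out libraries, a replicate block and GC and length trends were alternatives. The GC and length trends and the fit without both AA replicate 2 and BCAA replicate 3 were not planned beforehand. On simulated counts for BCAA against AA over 13118 genes the test found 20 of 65 genes given a 1.5-fold change, 48 of 66 given 2-fold and 53 of 65 given 4-fold, with 10 false calls among 131.

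The members and lists were chosen with earlier results of these data known. The named members were any called one, the 2 highest and 2 lowest log2 fold changes in each complex, and fixed subunits of known role. Ndufb4b, Ndufa4l2, Ndufs5, Cox6b1, Cox7b, Cox7b2, Cox8c, Uqcr11, Atp5j, Cycs, Lyrm7 and the pseudogene copies were named after their values were seen. Atpif1, listed among the fixed genes, carries no member symbol in this annotation, and 1 gene that the rule names is not reported here.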

Additional observations from a re-analysis of the deposited data

Results flagged for a closer look

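Within the AA group AA replicate 2 was the lowest library by a wide gap for several results. The gap to the next library, as a share of the group's whole range, was 0.769 for the median of all members, 0.769 for complex I, 0.772 for complex III and 0.802 for complex V, where a share above 0.71 marks an outlier among 5 samples. Among single members this share was 0.835 for Atp5b (9.72 log2 CPM, with 10.1 to 10.2 in the other 4 AA libraries), 0.729 for Atp5a1 (9.61, with 9.90 to 10.01), 0.73 for Uqcrb (5.29, with 5.79 to 5.97) and 0.779 for Ndufb4c (1.604, with 2.83 to 3.18). Chance marks about 1 in 20 groups, 41 results were looked at, and the members share their libraries. The BCAA group, with 3 libraries, was too small for this measure.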

How the results depend on the processing

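No member was called under any of the 19 alternatives, and 631 of 664 alternative values of the 35 named tested members kept their sign. The members' median log2 fold change was 0.083 to 0.207 with 1 library left out and 0.107 after removal of trends in GC and length. With upper-quartile factors or unscaled totals 19 members had an unadjusted p under 0.05, beside 13.7% of all tested genes. Without AA replicate 2 and BCAA replicate 3 the median was -0.107 in complex II and -0.0425 in complex IV, with Atp5g1 at -0.0887, Cox6a1 -0.143, Cox7a2 -0.223, Cox8a -0.0425, Cyc1 -0.115, Ndufa4 -0.0819, Sdhc -0.0865 and Sdhd -0.127. That pair was picked by the members' own values, so lower values without it follow from the choice. Without AA replicate 1 and BCAA replicate 3 Cox6a1 was at -0.0476, Cox7a2 -0.142, Cyc1 -0.0187, Ndufa4 -0.0045 and Sdhc -0.0409. With the trends removed Cox6a1 was at -0.0847, Cox7a2 -0.0396, Cyc1 -0.0600 and Atp5md 0.0481, and with unscaled totals Sdhb was at 0.0103. With 1 library left out Cox6a1 ran from -0.0652 to 0.202, Cox7a2 from -0.166 to 0.213, Cyc1 from -0.0655 to 0.111, Ndufa4 from -0.0672 to 0.0894, Sdhb from -0.168 to 0.0422 and Sdhc from -0.0707 to 0.174. The cause was not tested.

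Of all tested genes 101 were called (29 higher, 72 lower), 237 with no filter, 384 by DESeq2, 64 by limma-voom, 191 with the trends removed, and from 32 (without BCAA replicate 2) to 134 (without BCAA replicate 3, 78 higher and 56 lower) with 1 library left out. Equal replicate numbers did not pair the libraries (r -0.081, -0.052 and -0.298). The fit with a replicate block gave a member median of 0.223, with Atp5md at 0.0203 and Sdhb at 0.0644. That fit called 0 genes by edgeR, and 6 members had an unadjusted p under 0.05, beside 6.73% of all tested genes.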

Other observations

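By a rule set for the pattern over the 8 libraries, the tested genes whose log2 CPM followed Ndufv1 most closely included Trap1, a mitochondrial chaperone, the RNA helicase Ddx27, Hmga1b and Polr1a, the large subunit of RNA polymerase I, with Pearson r from 0.965 to 0.976. For Ndufb8 the 5 closest were Sord, the phosphate carrier Slc25a3, Ccdc85c, Gm15464 and Gm11478, with r from 0.968 to 0.99. They were picked as the highest of 13363 genes, share library depth and scaling, and carry no test. The median r of the other 81 tested members was 0.667 with Ndufv1 and 0.746 with Ndufb8, next to 0.02 and 0.00 over all tested genes.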
